A study of Mus musculus with 45 samples.

Results

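The 40 genes described here are skeletal muscle contractile and metabolic genes, picked by symbol from a list of known muscle genes. All 40 were found by symbol in both expression tables, each of which lists 47729 genes. They fall by role into 8 genes of the thin filament, 10 of the thick filament, 8 of the Z-disc and its cytoskeleton, 6 of calcium handling and 8 of energy supply and protein turnover.

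RNA was sequenced, with reads of 150 nucleotides, from 45 subcutaneous tumours of CT26, a mouse colon carcinoma line. The tumours grew in HuGEMM mice of BALB/c background, a double knock-in for human PD-1 and for human TIGIT, and the vehicle mice were of the same genotype. Antibodies or saline were given 2 times a week from day 8, when tumours measured 90 to 100 mm3, and each group holds 3 tumours. Experiment T2106 had 6 groups (18 tumours): vehicle, serplulimab 10 mg/kg, HLX53 10 mg/kg, pembrolizumab 10 mg/kg + tiragolumab 10 mg/kg, serplulimab 10 mg/kg + HLX53 5 mg/kg, and serplulimab 10 mg/kg + HLX53 10 mg/kg. Experiment T2215 had 9 groups (27 tumours): vehicle, and serplulimab, pembrolizumab, HLX53, tiragolumab, serplulimab + HLX53, serplulimab + tiragolumab, pembrolizumab + HLX53 and pembrolizumab + tiragolumab, each agent at 10 mg/kg. Serplulimab and pembrolizumab bind the T cell receptor PD-1, and HLX53 and tiragolumab are given here as agents against TIGIT. Tumours are named below by group and replicate number. The labels number the tumours as replicates and do not say how they were batched, so p-values measure only the spread between these tumours, which may in part be technical.

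The labels name 1 cell type, an undifferentiated colon carcinoma cell, but the RNA was taken from whole tumour tissue. Of 8 epithelial and colon markers, Krt18 and Krt20 reached 0.5 FPKM (sequenced fragments scaled to transcript length and library size) in 45 of 45 tumours. Krt8 did so in 33, Cdh1 in 32, Epcam in 26 and Cdx2 in 1, while Vil1 and Muc2 stayed below it in all 45. The FPKM of all genes summed to between 678636 and 911201 in a tumour, and between 12918 and 14448 genes reached 0.5 FPKM. Read depth is unknown because no counts were used here. In bulk tissue, fewer muscle cells and less muscle RNA per cell cannot be told apart.

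As background, a skeletal muscle fibre contracts when calcium leaves its internal store and binds troponin, which lets myosin heads of the thick filament pull on actin of the thin filament. Fast and slow fibres are built from different gene copies of myosin, troponin and myosin-binding protein, and fast fibres draw on creatine phosphate and glycogen for quick supply of ATP. Transcription of these genes in muscle is known to use MyoD-family factors, which bind E-boxes, the MEF2 factors and serum response factor, which binds the CArG box.

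The promoters of 6 members show how the genes that carry the results differ at their start. RefSeq promoters on GRCm38.p6 were found for 30 of the 40 members. No entry was found for Myoz1, Tnnt3, Neb, Myot, Tnni2, Actn3, Cox6a2, Tcap, Trdn and Ampd1. Each sequence below is the 250 bases before the RefSeq start, read 5′ to 3′ on the gene's strand, with matches in capitals. The 3 motifs searched on both strands were the E-box CAGCTG, the MEF2 site and the CArG box, of which the MEF2 site and the CArG box are both rich in A and T and can overlap. Acta1 lies at chr8:123894776-123895025 (minus strand), Ckm at chr7:19410844-19411093 (plus), Myh4 at chr11:67237562-67237811 (plus), Tnnc2 at chr2:164779735-164779984 (minus), Des at chr1:75360042-75360291 (plus) and Eno3 at chr11:70656926-70657175 (plus).
Acta1: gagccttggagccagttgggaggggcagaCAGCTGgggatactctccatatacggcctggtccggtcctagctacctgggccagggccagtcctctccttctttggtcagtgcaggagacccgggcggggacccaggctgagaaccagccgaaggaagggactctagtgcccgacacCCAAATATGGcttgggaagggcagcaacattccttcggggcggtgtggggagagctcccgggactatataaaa
Ckm: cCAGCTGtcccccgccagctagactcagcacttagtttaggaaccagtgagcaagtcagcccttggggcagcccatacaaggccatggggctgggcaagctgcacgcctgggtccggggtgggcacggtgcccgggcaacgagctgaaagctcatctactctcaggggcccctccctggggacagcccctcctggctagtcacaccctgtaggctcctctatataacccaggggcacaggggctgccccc
Myh4: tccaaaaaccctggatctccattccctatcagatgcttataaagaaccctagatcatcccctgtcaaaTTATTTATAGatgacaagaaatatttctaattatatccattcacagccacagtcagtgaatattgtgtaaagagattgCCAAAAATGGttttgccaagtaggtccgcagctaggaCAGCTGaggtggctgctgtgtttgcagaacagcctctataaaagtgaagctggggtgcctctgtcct
Tnnc2: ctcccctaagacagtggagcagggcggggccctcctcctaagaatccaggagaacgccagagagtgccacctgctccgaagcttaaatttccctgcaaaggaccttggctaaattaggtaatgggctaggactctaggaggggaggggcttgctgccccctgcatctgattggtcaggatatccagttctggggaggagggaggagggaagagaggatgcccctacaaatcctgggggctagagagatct
Des: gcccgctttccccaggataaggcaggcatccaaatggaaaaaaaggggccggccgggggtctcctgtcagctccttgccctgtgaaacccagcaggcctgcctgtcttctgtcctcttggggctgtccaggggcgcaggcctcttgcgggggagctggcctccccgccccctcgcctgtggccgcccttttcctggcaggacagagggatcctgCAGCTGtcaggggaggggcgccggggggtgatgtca
Eno3: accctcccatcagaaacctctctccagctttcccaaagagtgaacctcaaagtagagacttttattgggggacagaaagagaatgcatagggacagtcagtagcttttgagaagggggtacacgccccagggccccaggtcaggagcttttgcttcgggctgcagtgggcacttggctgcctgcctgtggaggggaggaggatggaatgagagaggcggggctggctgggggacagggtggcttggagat
The Acta1 promoter holds an E-box 221 bases and a CArG box 73 bases before the start. Myh4 holds all 3 motifs, with the MEF2 site at 182, the CArG box at 104 and the E-box at 67 bases. Ckm has an E-box at 249 bases and Des has an E-box at 36 bases, whereas no match was found in this window for Tnnc2 or Eno3. Over the 30 member promoters, 16 (53.3%) held CAGCTG, against 12.8% of 27025 mouse promoters of the same length. A MEF2 match was found in 7 (23.3% against 3.01%) and a CArG match in 2 (6.67% against 1.40%), and 20 of 30 (66.7%) held any of the 3, against 16.6%. These matches describe the letters in this window and were not tested as binding sites. Gene models below come from GENCODE M21 (GRCm38), whose starts can differ from those of RefSeq.

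Most of these genes were close to absent in most tumours. A score was taken for each tumour as the mean over the 40 members of log2(FPKM + 0.5). A tumour was set apart where its score lay more than 1 above the median of its experiment, which was true of 4 of 45. Because the members' own values chose those 4 tumours, their levels are given as a description with no test. In T2106 the score had a median of −0.20, and 17 tumours lay between −0.30 and 0.08, while serplulimab + HLX53 5 mg/kg tumour 2 reached 1.18. In T2215 the median was −0.16 and 24 tumours lay between −0.30 and 0.06. Serplulimab tumour 1 reached 7.13, pembrolizumab + tiragolumab tumour 3 reached 2.36 and serplulimab + tiragolumab tumour 2 reached 1.13. The other 2 tumours of each of these 4 groups did not meet the rule, so they are part of the ranges just given.

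**Figure D1:**
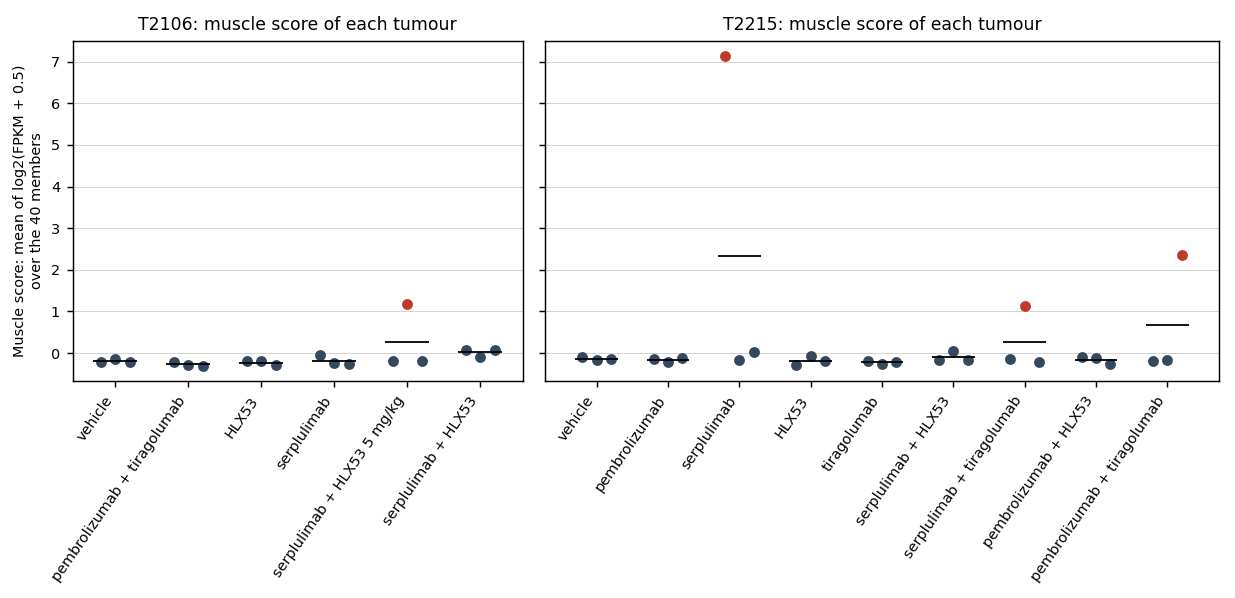
Muscle score of each tumour (mean over 40 members of log2(FPKM + 0.5), vertical axis) by treatment group in T2106 and T2215. Points are tumours, bars are group means of 3 tumours, and red points are the 4 tumours more than 1 above their experiment's median. The 4 lie at 1.18, 1.13, 2.36 and 7.13, while the other 41 stay between −0.30 and 0.08.

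Among the 41 remaining tumours, 25 members in T2106 and 23 in T2215 never reached 0.5 FPKM. The members' summed level there was 85.0 to 126 FPKM in T2106 and 74.5 to 140 FPKM in T2215. Eno3, the muscle form of the glycolytic enzyme enolase, led it, with a lowest, median and highest level of 20.2, 68.0 and 86.9 FPKM in T2106 and 16.2, 71.7 and 92.3 FPKM in T2215. Tpm2, a tropomyosin that covers the myosin-binding sites of actin in muscle and other cells, followed at 19.9, 24.0 and 38.7 FPKM in T2106 and at 19.6, 22.0 and 34.8 FPKM in T2215. The ranges of these 2 genes overlapped, so their order did not hold in every tumour.

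Below them came Cox6a2, a subunit of cytochrome c oxidase made in heart and skeletal muscle, at 1.13, 4.39 and 12.8 FPKM in T2106 and 1.64, 4.31 and 9.90 FPKM in T2215. Tnni2, the inhibitory troponin of fast fibres, had 0.661, 1.63 and 3.04 FPKM in T2106 and 0.951, 1.97 and 5.19 FPKM in T2215. Des, the intermediate filament protein desmin that ties Z-discs together and is also made by smooth muscle, had 0.703, 1.69 and 6.32 FPKM in T2106 and 0.976, 1.56 and 5.14 FPKM in T2215. Mylpf, the regulatory light chain of fast myosin, lay in the same range at 0.673, 1.52 and 3.16 FPKM in T2106 and 0.616, 1.61 and 3.29 FPKM in T2215. Tnni2, Des and Mylpf overlapped one another in both experiments. Slow troponin T, Tnnt1, came next, with medians of 0.896 and 0.767 FPKM. By contrast Acta1, the actin of the skeletal thin filament, had medians of 0.0769 and 0.181 FPKM and never passed 0.214 FPKM in T2106 or 0.502 FPKM in T2215. Myh7, the myosin heavy chain of slow fibres, never passed 0.0428 FPKM in T2106 or 0.0349 FPKM in T2215. In all, 7 members were at 0.5 FPKM or more in every tumour of T2106 (Eno3, Tpm2, Cox6a2, Tnni2, Des, Mylpf and Tnnt1), and all but Tnnt1 were so in every tumour of T2215.

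**Figure D2:**
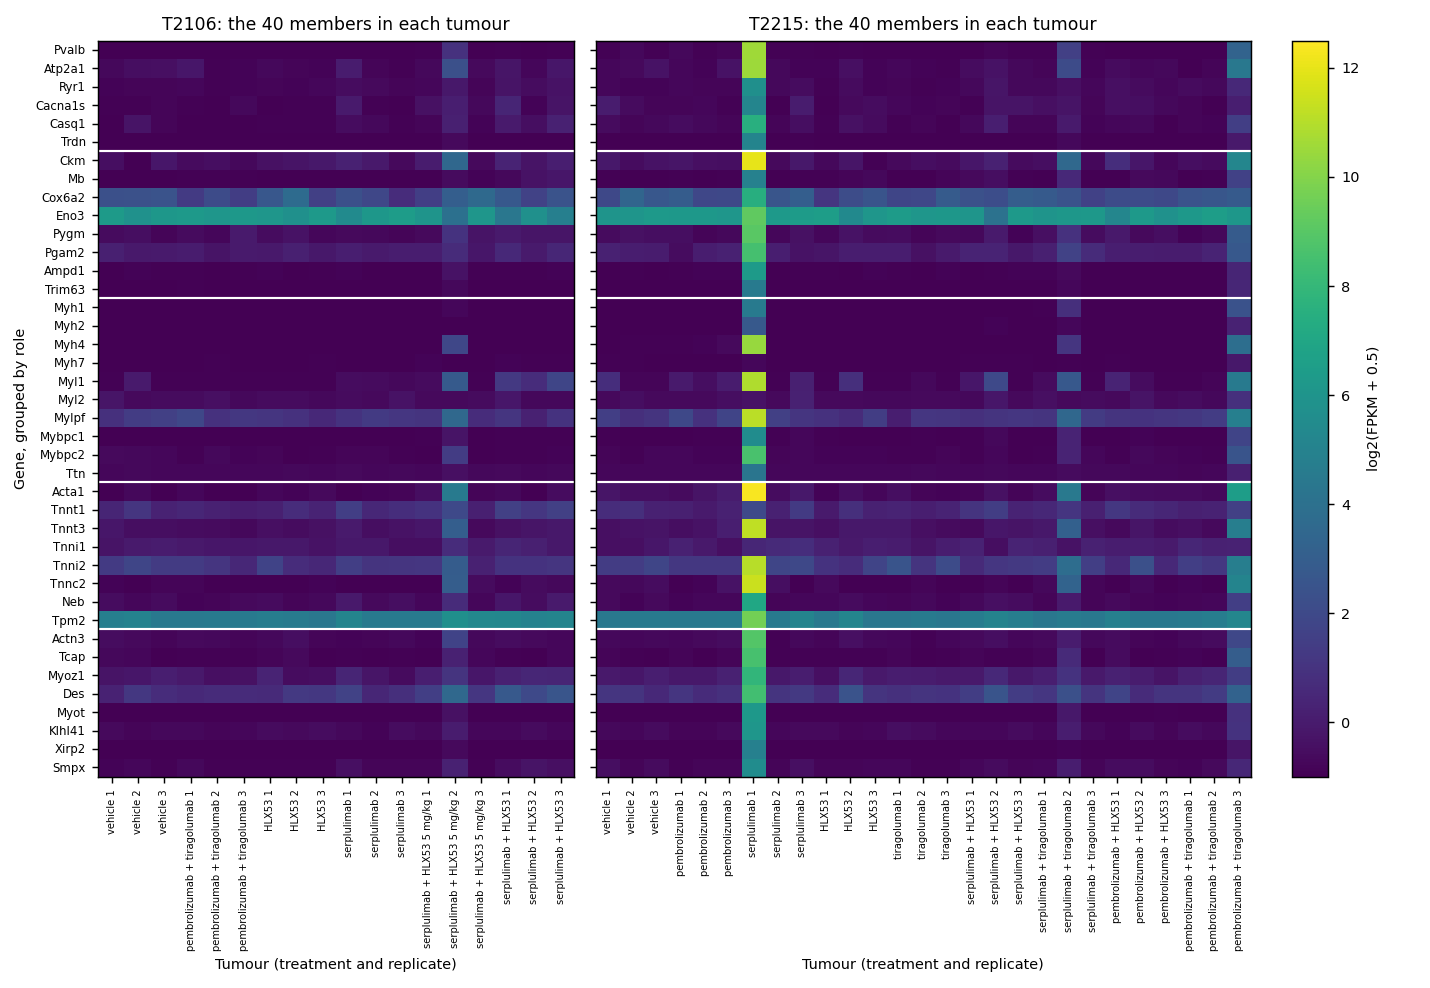
Level of each of the 40 members (one line each, grouped by role) in each of the 45 tumours (one column each, by group), as log2(FPKM + 0.5). Eno3 and Tpm2 are high in nearly all tumours, and 4 columns, led by T2215 serplulimab tumour 1, are high for most members.

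In T2215 serplulimab tumour 1 the 40 members together made up 4.03% of all FPKM, a summed level of 30141 FPKM. In the 41 tumours that did not stand apart the share was 0.0110% to 0.0176%. Of the members, 38 were above every one of the 24 T2215 tumours that did not stand apart, which was true of 8.85% of the 16381 genes at 0.5 FPKM or more in at least 1 tumour. The other 2, Tnni1 and Myl2, belong to slow muscle. Of the 40, 35 reached 10 FPKM and 10 reached 1000 FPKM. Acta1 was the 7th most abundant gene of that tumour, and 9 members were among its top 100.

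Its thin filament genes were led by Acta1 (ENSMUSG00000031972, chr8:123891769-123894751, minus strand) at 5349 FPKM, against 0.186 and 0.412 FPKM in serplulimab tumours 2 and 3. The fast troponins followed, with 2729 FPKM for Tnnc2, which binds calcium, 2328 FPKM for Tnnt3, which binds tropomyosin, and 2095 FPKM for Tnni2. Tpm2 reached 793 FPKM and Neb, the giant protein nebulin that runs along the thin filament, reached 132 FPKM. The slow troponins did not share these levels: Tnnt1 was at 3.37 FPKM and Tnni1 at 0.872 FPKM, below the 1.02 and 1.19 FPKM of Tnni1 in serplulimab tumours 2 and 3.

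Its thick filament genes showed the same division between fast and slow forms. The light chains of fast myosin, Mylpf and Myl1, stood at 2218 and 1910 FPKM, and the heavy chain of type IIb fibres, Myh4 (chr11:67238029-67260446, plus strand), at 1343 FPKM. Myh4 was at 0.00902 and 0.00873 FPKM in serplulimab tumours 2 and 3. Mybpc2, the fast form of a protein that binds and steadies myosin, was at 388 FPKM, and its slow form Mybpc1 at 46.4 FPKM. Ttn, the giant spring titin, stood at 18.8 FPKM, against 0.0930 and 0.0837 FPKM in serplulimab tumours 2 and 3. Of the slow or cardiac forms, Myl2, a regulatory light chain, was at 0.295 FPKM and Myh7 at 0.0795 FPKM, and neither reached 0.5 FPKM.

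At the Z-disc, Actn3, the alpha-actinin of fast fibres, reached 478 FPKM, Tcap, which caps titin, 382 FPKM, and Des 338 FPKM, against 1.53 and 1.90 FPKM of Des in serplulimab tumours 2 and 3. Myoz1, a calcineurin-binding Z-disc protein, was at 234 FPKM and Myot, the actin-bundling protein myotilin, at 72.9 FPKM. Klhl41, which protects nebulin from loss, was at 68.5 FPKM, and the lesser known Smpx and Xirp2, both of the muscle cytoskeleton, were at 47.1 and 29.3 FPKM. The calcium genes ranged from 34.1 FPKM for Trdn, which anchors the release complex, and 35.0 FPKM for Cacna1s, the voltage sensor, to 1470 FPKM for Atp2a1, the calcium pump, and 1525 FPKM for Pvalb, the calcium buffer of fast fibres. Between them lay Ryr1, the release channel, at 52.3 FPKM and Casq1, the calcium store protein, at 181 FPKM.

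Among the energy and turnover genes Ckm, the muscle creatine kinase, was highest at 4031 FPKM, against 0.138 and 0.414 FPKM in serplulimab tumours 2 and 3. Eno3 was at 588 FPKM, against 78.6 and 83.0 FPKM, or 8.20 times the median of the 24 tumours that did not stand apart, where Tpm2 was at 36.0 times and Des at 216 times theirs. Pygm, which breaks down glycogen, was at 520 FPKM, Pgam2, a glycolytic mutase, at 360 FPKM, Cox6a2 at 177 FPKM and Ampd1, the muscle AMP deaminase, at 81.7 FPKM. The oxygen store myoglobin, Mb, abundant in slow and oxidative fibres, stood at 30.5 FPKM, and Trim63, a ubiquitin ligase of muscle protein loss, at 23.0 FPKM. Grouped by fibre type, the 14 fast members had a median of 1407 FPKM and a sum of 16927 FPKM, and the 5 slow members a median of 0.872 FPKM and a sum of 51.0 FPKM.

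The other 3 tumours had most of these genes at lower levels than serplulimab tumour 1. The exceptions were Myh7 and Myl2 in pembrolizumab + tiragolumab tumour 3 (0.402 and 1.30 FPKM) and Tnni1 in the T2106 tumour (1.14 FPKM), all of slow muscle. Slow Tnnt1 was level, at 3.38 FPKM in the T2106 tumour and 3.37 FPKM in serplulimab tumour 1. The experiments were normalised separately, so levels compare only roughly between them. Pembrolizumab + tiragolumab tumour 3 of T2215 had a summed member level of 489 FPKM (0.0674% of all FPKM), and 37 members were above every tumour that did not stand apart, against 5.63% of genes. Its Acta1 was at 90.1 FPKM, Ckm at 36.2 FPKM, Tnnc2 at 33.3 FPKM, Mylpf at 27.7 FPKM, Tnni2 at 26.96 FPKM and Myh4 at 14.2 FPKM, while Acta1 was at 0.157 and 0.105 FPKM in tumours 1 and 2 of the group. Its Eno3, at 69.1 FPKM, Tnni1 and Cox6a2 were within the range of the rest. In serplulimab + tiragolumab tumour 2 the sum was 208 FPKM (0.0276%), and 29 members were above every tumour that did not stand apart, against 1.96% of genes. Acta1 stood at 21.5 FPKM, Tnni2 at 13.5 FPKM, Ckm at 11.2 FPKM, Mylpf at 10.9 FPKM, Des at 4.34 FPKM and Myh4 at 1.61 FPKM, while Acta1 was at 0.176 and 0.0761 FPKM in the other 2 tumours of its group.

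In T2106, serplulimab + HLX53 5 mg/kg tumour 2 had a member sum of 189 FPKM (0.0276%). Of its members, 32 were above every other tumour of the experiment, but so were 18.2% of the 16167 genes at 0.5 FPKM or more in at least 1 tumour. Its Acta1 was at 22.3 FPKM, Mylpf at 11.3 FPKM, Des and Ckm both at 11.1 FPKM, Tnni2 at 7.17 FPKM and Myh4 at 3.13 FPKM. Eno3 went the other way: at 15.1 FPKM it was below all 17 other tumours, whose lowest was 20.2 FPKM. Tumours 1 and 3 of the group had Acta1 at 0.214 and 0.0786 FPKM, Ckm at 0.502 and 0.131 FPKM, and Eno3 at 64.0 and 68.0 FPKM.

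**Figure D3:**
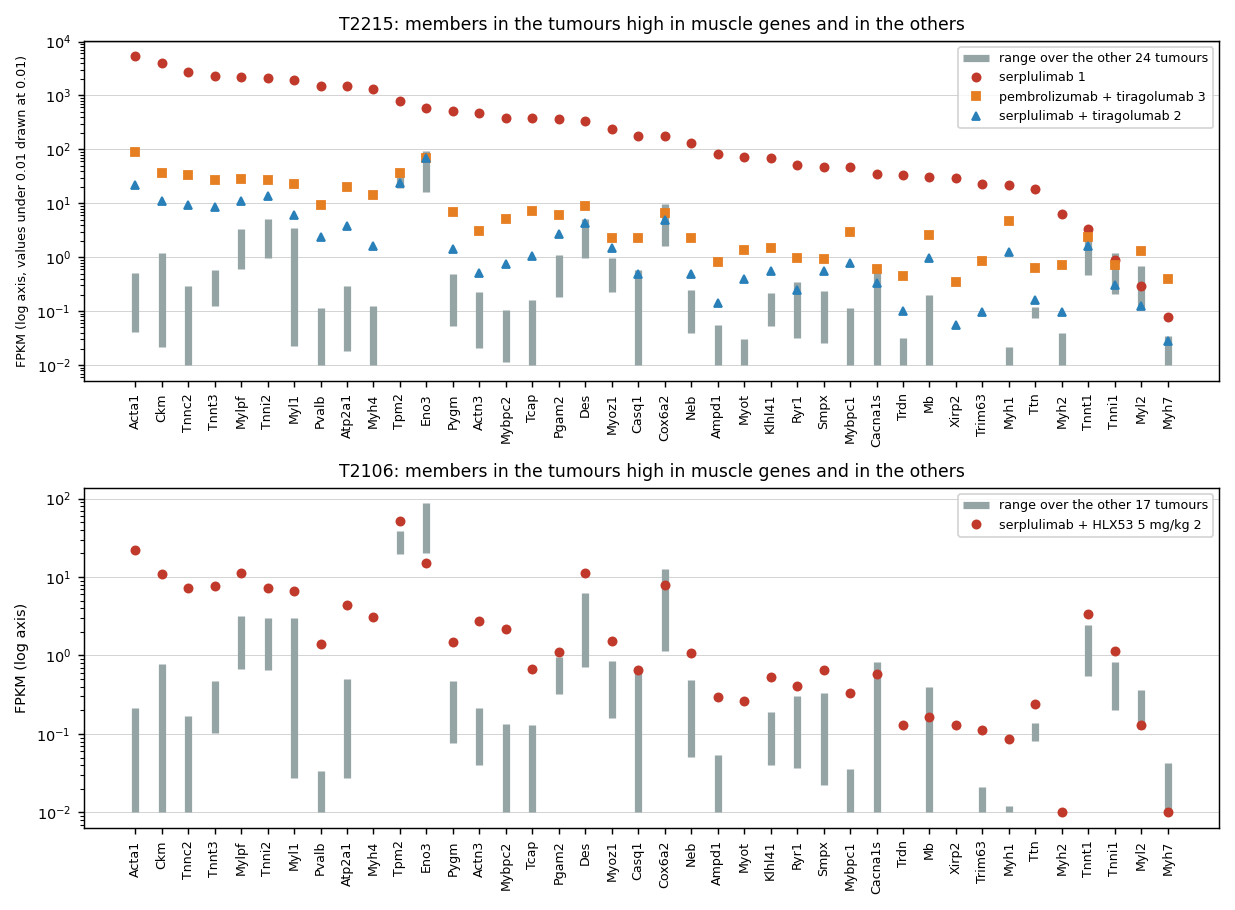
FPKM (log axis) of each member, ordered by its level in T2215 serplulimab tumour 1, in the 4 tumours that stand apart, with the range of the other 24 tumours of T2215 and the other 17 of T2106. Serplulimab tumour 1 reaches 5349 FPKM for Acta1, and the other 3 tumours lie lower for most members, with Acta1 at 90.1, 22.3 and 21.5 FPKM. The slow members Myh7, Myl2 and Tnni1 are the exceptions, each higher in 1 of the other 3, and Tnnt1 is level in the T2106 tumour. The experiments were normalised separately.

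The relative amounts of the members differed between these tumours. For the 35 members at 10 FPKM or more in serplulimab tumour 1, the level above the median of the rest was expressed as a percentage of the same excess in that tumour. In pembrolizumab + tiragolumab tumour 3 it had a median of 1.36%, with the middle 50% of members between 1.19% and 1.86%. In serplulimab + tiragolumab tumour 2 the median was 0.335%, with the middle 50% between 0.246% and 0.552%. Myh1, Mb and Mybpc1 lay highest in both tumours: in pembrolizumab + tiragolumab tumour 3 the excess was 21.9% for Myh1, 8.22% for Mb and 6.22% for Mybpc1, against 1.06% for Myh4 and 0.609% for Pvalb. The same 3 genes were at 5.80%, 3.14% and 1.67% in serplulimab + tiragolumab tumour 2, against 0.120% for Myh4. These are single tumours, so no spread can be given for their difference.

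The adult myosin heavy chains also differed in their shares. Myh2, Myh1 and Myh4, the chains of type IIa, IIx and IIb fibres, lie side by side on chromosome 11 (67171027 to 67260446) and are near-identical in long stretches, so how reads were shared among them is uncertain. Of their summed FPKM together with Myh7, the chain of slow fibres, Myh4 made up 97.9% in serplulimab tumour 1 and 97.3% in serplulimab + HLX53 5 mg/kg tumour 2. In pembrolizumab + tiragolumab tumour 3 Myh4 made up 70.6%, Myh1 23.8%, Myh2 3.62% and Myh7 1.99%. In serplulimab + tiragolumab tumour 2 Myh4 made up 53.6%, Myh1 42.3%, Myh2 3.18% and Myh7 0.935%. Mybpc2, not part of that gene cluster, made up 89.3% of Mybpc1 and Mybpc2 in serplulimab tumour 1 and 86.7% in the T2106 tumour, but 64.3% and 49.3% in the same pair of T2215 tumours.

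**Figure D4:**
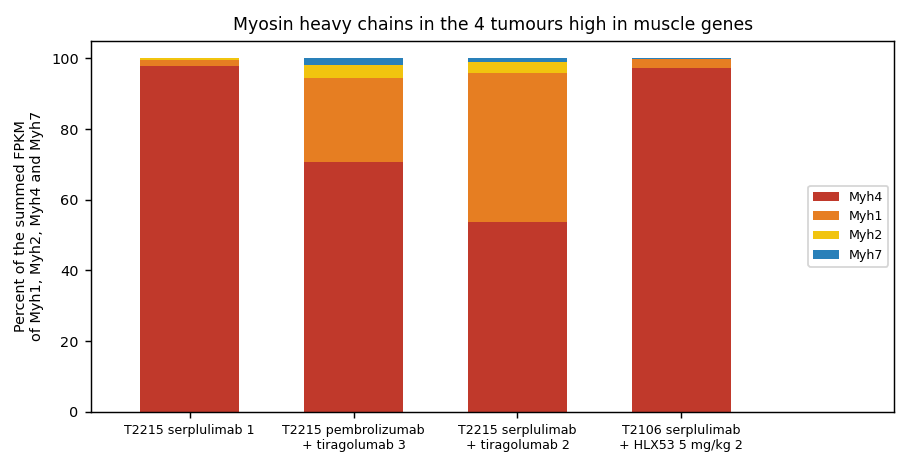
Share of the summed FPKM of 4 adult myosin heavy chain genes (percent, vertical axis) held by Myh4, Myh1, Myh2 and Myh7 in each of the 4 tumours that stand apart. Myh4 makes up 97.9% and 97.3% in 2 tumours and 70.6% and 53.6% in the other 2, where Myh1 takes most of the remainder.

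The troponins gave a measure that could be set against all tumours. Fast Tnnt3 made up 6.40% to 46.5% of troponin T (Tnnt3 and slow Tnnt1) in the 24 other tumours of T2215 and 9.94% to 31.6% in the 17 of T2106. It made up 99.9% in serplulimab tumour 1, 91.8% in pembrolizumab + tiragolumab tumour 3, 83.8% in serplulimab + tiragolumab tumour 2 and 69.2% in serplulimab + HLX53 5 mg/kg tumour 2. The 4 tumours lay above the whole range of the rest, but both genes are among the members whose values chose these tumours. Their share is therefore a description and no independent support. Of troponin I, fast Tnni2 already made up 57.7% to 88.9% in the rest of T2106 and 58.4% to 90.7% in the rest of T2215, and 86.3% of it in the T2106 tumour that stood apart was inside that range.

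Other muscle genes and the genes of other tissues were followed in the same 4 tumours. In serplulimab tumour 1, all 21 further sarcomere genes of the list, 14 of 15 further calcium and excitation genes and all 15 further muscle metabolism genes were above every tumour that did not stand apart. So were all 8 myogenic regulators found, which direct muscle cell identity, with Myf6 at 10.9 FPKM, Myod1 at 2.83 FPKM and Myog at 1.95 FPKM. Of genes made in slow fibres outside the 40, 2 of 7 were above the rest, of cardiac genes 2 of 7 and of developmental myosin genes 5 of 6. Of other tissues, 3 of 8 smooth muscle genes, 2 of 10 adipocyte genes, 3 of 9 keratinocyte genes, 4 of 7 nerve genes and 4 of 6 erythrocyte genes were. Their summed levels were 218 FPKM for smooth muscle (27.4 to 199 FPKM in the rest), 2994 FPKM for adipocyte genes (75.0 to 3826 FPKM) and 1678 FPKM for erythrocyte genes (119 to 590 FPKM).

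Genes of other tissues differed among the remaining 3. In serplulimab + tiragolumab tumour 2, 8 of 9 keratinocyte genes, which mark skin, were above all the rest, with a sum of 152 FPKM against 1.15 to 14.2 FPKM, while no adipocyte or smooth muscle gene was. Of further sarcomere genes 9 of 21 were above the rest there, and of calcium and excitation genes 6 of 15. In pembrolizumab + tiragolumab tumour 3, 14 of 21 further sarcomere genes and 8 of 15 calcium and excitation genes were above the rest, and of other tissues 2 of 9 keratinocyte genes and no adipocyte or smooth muscle gene. In serplulimab + HLX53 5 mg/kg tumour 2, 12 of 21 sarcomere genes, 5 of 8 smooth muscle genes and 4 of 10 adipocyte genes were above the rest and no keratinocyte gene was. Its 8 cell division genes summed to 223 FPKM, under the 261 to 730 FPKM of the other tumours of T2106. The part of these tissues in the members' levels was not tested.

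The comparisons with vehicle used limma on log2(FPKM + 0.5), fitted to all genes at 0.5 FPKM or more in at least 3 tumours of an experiment, with Benjamini-Hochberg adjustment and a threshold of 0.05. In T2106 12 members of 15070 genes entered, and in T2215 29 of 14914. Of the 29, 18 entered only through the tumours that stand apart, Acta1, Ckm and Myh4 among them, and 11 would also have entered without them. In T2106 all 12 would have entered without the tumour that stands apart, but besides that tumour Myl1 reached 0.5 FPKM only in the 3 given serplulimab + HLX53 10 mg/kg. A gene that enters through the group where it is high had to differ, so its test there is no support for a difference. Log2 differences are on this scale, which understates the change of low genes, and are given with their standard error. The comparisons of an experiment share the same 3 vehicle tumours and a common estimate of spread. A tumour that stands apart can therefore widen the errors in groups that do not hold it. A member that missed the threshold was not shown to be unchanged.

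In T2106, tumours given serplulimab + HLX53 10 mg/kg had more Des than vehicle tumours. Des and Myl1 were the 2 of 12 tested members that passed the threshold, both upward, and Myl1 had entered the test through the treated tumours. None fell past it, against 23.4% of all genes that rose and 20.6% that fell (44.0% in either direction). The share of members called was thus below that of all genes. Des was at 0.703, 1.82 and 1.16 FPKM in the vehicle tumours and at 6.32, 3.40 and 5.30 FPKM in the treated tumours. Every treated tumour was above every vehicle tumour, and the groups did not overlap. The means were 1.23 ± 0.560 (SD, n = 3) and 5.00 ± 1.48 FPKM (SD, n = 3), a log2 difference of 1.68 ± 0.50 (limma, adjusted p = 0.0200). Myl1 (chr1:66924295-66945404, minus strand), an essential light chain of fast myosin, was at 0.0297, 0.476 and 0.0333 FPKM with vehicle and at 1.89, 1.16 and 2.998 FPKM with treatment. These groups did not overlap either, and the means were 0.180 ± 0.257 and 2.02 ± 0.926 FPKM (SD, n = 3), a log2 difference of 1.88 ± 0.68 (limma, adjusted p = 0.0382). With no filter on low values its adjusted p was 0.121, and its values are given here as a description.

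Other members missed the threshold in that comparison, 2 of them at an unadjusted p under 0.05. Eno3 was at 81.7, 56.3 and 70.4 FPKM with vehicle and at 20.2, 54.5 and 27.5 FPKM with treatment, so all 3 treated tumours were below all 3 vehicle tumours, one of them narrowly. Its log2 difference was −1.13 ± 0.47 (limma, adjusted p = 0.0634). Tnnt1 was at 0.794, 1.58 and 0.721 FPKM with vehicle and at 2.47, 1.72 and 2.40 FPKM with treatment, a log2 difference of 0.85 ± 0.37 (limma, adjusted p = 0.0743). Ckm was at 0.201, 0.00117 and 0.365 FPKM with vehicle and 0.789, 0.329 and 0.600 FPKM with treatment, where the groups overlapped (0.65 ± 0.73, limma, adjusted p = 0.462). Tnni1 was at 0.313, 0.484 and 0.512 FPKM with vehicle and 0.822, 0.653 and 0.415 FPKM with treatment, also overlapping (0.26 ± 0.25, limma, adjusted p = 0.382). Acta1 and Myh4 were too low to be tested: with treatment Acta1 was at 0.112, 0.0150 and 0.184 FPKM and Myh4 at no more than 2.56e-05 FPKM in each tumour, both near 0. Tnni2 ran at 1.93, 3.04 and 2.04 FPKM with vehicle and 1.48, 1.46 and 1.63 FPKM with treatment, and Ttn at 0.0809, 0.101 and 0.0926 FPKM against 0.136, 0.0862 and 0.111 FPKM. Over the 12 tested members, Myl1 included, the median log2 difference was 0.30, against −0.04 over all genes.

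Both calls depended on the settings and on single tumours. With no filter on low values neither passed (Des 0.0659, Myl1 0.121), and with a pseudocount of 1 Myl1 did not (0.0517). Des lost its call without vehicle tumour 1 (adjusted p = 0.0677), treated tumour 1 (0.0848) or treated tumour 3 (0.0651), and Myl1 lost it without any one vehicle tumour (0.0985, 0.0518 and 0.0924) or without treated tumour 1 (0.104) or 3 (0.122). The T2106 tumour that stands apart was also left out of the fit, an alternative chosen after seeing the data. Des, Tnnt1 and Ckm were then called higher (limma, adjusted p = 0.00102, 0.0227 and 0.0481) and Eno3 lower (0.00663). Myl1 was called too (0.000230), but in that fit it reached 0.5 FPKM in the treated tumours alone. The share of all genes called in that fit is not given, so these calls do not set the members apart from other genes.

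Genes of other tissues moved in the same comparison. All 10 adipocyte genes rose, with a median log2 difference of 3.75 and, among them, Plin1 (4.28), Plin4 (3.09), Lep (1.95) and Pnpla2 (1.07). Their score was 2.11 ± 1.41 in the vehicle tumours and 5.80 ± 0.170 in the treated tumours (SD, n = 3). Of 8 smooth muscle genes 7 rose, with Tagln (3.14), Myh11 (2.32), Synpo2 (1.95) and Cnn1 (1.83) among them, and Smtn fell (−0.69). Of 4 keratinocyte genes tested 3 rose (Krt5 2.96, Krt14 2.57, Krt15 1.14), of 5 nerve genes tested 2 rose (Pmp22 2.41, Mbp 1.98) and Prx fell (−1.23), and all 8 cell division genes fell, with a median of −1.01. The part of these tissues in the levels of Des, Myl1 and Eno3 was not tested.

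Further muscle genes were divided. Of 8 further muscle metabolism genes tested, 5 rose, among them Cox8b (4.02), a cytochrome c oxidase subunit also made in brown fat, Slc2a4 (2.38), the insulin-responsive glucose carrier of muscle and fat, and Fabp3 (2.16), a fatty acid carrier. Fbxo32 (1.94), a ubiquitin ligase of muscle wasting, rose as well, and Phka1 (−0.45), a subunit of phosphorylase kinase, fell. Among further sarcomere genes tested, Pdlim3 (1.21) rose and Hspb7 (−0.90) fell. Of 6 further calcium and excitation genes tested, Cacnb1 (0.94) rose, while Chrnb1 (−1.90) and Chrna1 (−1.33), subunits of the acetylcholine receptor of the nerve-muscle junction, and Srl (−0.72) fell. Of 3 cardiac genes tested 2 rose (Tnni3 1.59, Sbk2 0.81), and none of 3 further slow fibre genes, 3 developmental myosin genes and 4 erythrocyte genes tested passed the threshold.

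With HLX53 at 5 mg/kg beside serplulimab, none of the 12 tested members passed the threshold against vehicle and 1 had an unadjusted p under 0.05 (1.02% of all genes passed, 0.352% higher and 0.67% lower). The direction of those 154 genes depended on scaling: 53 were higher, but after centring each tumour 80 were called and 62 of them were higher. The median log2 difference of the members was 0.43, against −0.08 over all genes. Des was at 2.36, 11.1 and 1.69 FPKM, with the highest value in the tumour that stands apart (log2 difference 1.33 ± 0.50, limma, adjusted p = 0.121). Ckm differed by 1.53 ± 0.73 (limma, adjusted p = 0.179) and Tnni1 by 0.17 ± 0.25 (limma, adjusted p = 0.622). Without that tumour Des differed by 0.59 (limma, adjusted p = 0.475). Left without tumour 3, the group gave calls for Ckm (2.34) and Des (1.79) at limma's adjusted p = 0.0221 and 0.0203. Without tumour 1 it gave a call for Tpm2 (0.74, limma, adjusted p = 0.0467). Both fits kept tumour 2, which the members' own values chose, so these calls are no support for a difference. The share of all genes called in them is not given. In the direct comparison of 10 with 5 mg/kg of HLX53 beside serplulimab, no member passed the threshold and none had an unadjusted p under 0.05, against 0.139% of all genes that passed. Without 5 mg/kg tumour 2, Des (1.10, limma, adjusted p = 0.0289) was higher at 10 mg/kg and Eno3 (−1.07, 0.0265) was lower. Myl1 (2.01, 0.000643) was higher but then reached 0.5 FPKM in the 10 mg/kg tumours alone. The share of all genes called in that fit is not given.

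The other 3 treatments of T2106 gave no member past the threshold and none with an unadjusted p under 0.05. The share of all genes past it was 0.0% with serplulimab, 0.00664% with HLX53 and 0.0% with pembrolizumab + tiragolumab. Des differed from vehicle by 0.25, 0.27 and −0.10 (SE 0.50 each), Ckm by 0.42, 0.29 and −0.05 (SE 0.73 each) and Tnni1 by −0.15, −0.10 and −0.03 (SE 0.25 each), in that order. The members' medians were −0.03, −0.11 and −0.15, against −0.02, −0.03 and −0.06 over all genes.

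In T2215, serplulimab alone gave the highest group mean of the score, 2.33 ± 4.16 (SD, n = 3), against −0.14 ± 0.04 in vehicle tumours, and that mean rested on tumour 1. None of the 29 tested members passed the threshold (0.0% of all genes did). Since 18 of the 29 entered through the tumours that stand apart, no median or count of signs is given with those tumours in the fit. For the same reason no count of unadjusted p-values is given for this comparison. Acta1 was at 0.340, 0.195 and 0.203 FPKM in vehicle tumours and at 5349, 0.186 and 0.412 FPKM with serplulimab, a log2 difference of 4.33 ± 2.28 (limma, adjusted p = 0.429). Ckm differed by 4.08 ± 2.11 (0.425), Myh4 by 3.74 ± 1.85 (0.409) and Des by 2.67 ± 1.18 (0.389), with limma's adjusted p in parentheses. Without the 3 tumours that stand apart the median log2 difference of the same 29 members was 0.02, with 17 positive and 12 negative, and Acta1 differed by 0.09 ± 0.22. Of the 29, 18 reached 0.5 FPKM in fewer than 3 of the remaining tumours. On this scale such low genes give differences near 0, so this median cannot show whether the members changed. Without serplulimab tumour 2 the group held tumour 1, which stands apart, and tumour 3. For that fit the share of all genes called is not given. In it Tnni1, Actn3, Cacna1s, Myoz1, Casq1, Tpm2, Des, Cox6a2, Klhl41 and Smpx were called higher. Of these, Actn3, Cacna1s, Casq1, Klhl41 and Smpx are among the 18 that entered through the tumours that stand apart. The members' own values chose tumour 1, so these calls are no support for a difference.

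Slow troponin I, Tnni1, had the smallest unadjusted p of the members in this comparison. It was at 0.237, 0.238 and 0.389 FPKM in the vehicle tumours and at 0.872, 1.02 and 1.19 FPKM with serplulimab. All 3 serplulimab tumours were above all 3 vehicle tumours, and the one that stands apart was the lowest of them. The log2 difference was 0.95 ± 0.22, with an unadjusted p of 0.000243 that did not pass after adjustment over all genes (limma, adjusted p = 0.387), and it was 1.03 ± 0.23 (0.464) without the tumours that stand apart. Against the same vehicle tumours the 7 other treatments gave log2 differences of 0.25 to 0.66 (SE 0.22 each), of which HLX53 (0.46) and pembrolizumab + tiragolumab (0.66) had an unadjusted p under 0.05. In T2106 the serplulimab tumours had 0.409, 0.417 and 0.204 FPKM of Tnni1, with no tumour above the highest of the vehicle tumours at 0.512 FPKM.

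With pembrolizumab + tiragolumab no member passed the threshold, 1 had an unadjusted p under 0.05, and 0.0134% of all genes passed. Acta1 differed by 2.15 ± 2.28, Ckm by 1.71 ± 2.11, Myh4 by 1.55 ± 1.85 and Des by 0.99 ± 1.18. With serplulimab + tiragolumab no member passed it or had an unadjusted p under 0.05 (0.0% of all genes passed), and Acta1 differed by 1.46 ± 2.28, Ckm by 1.13 ± 2.11, Myh4 by 0.62 ± 1.85, Des by 0.60 ± 1.18 and Tnni1 by 0.38 ± 0.22. Without the tumours that stand apart the medians of the 29 members were −0.08 and −0.04, with the same limit from low genes.

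The other 5 treatments of T2215, pembrolizumab, HLX53, tiragolumab, serplulimab + HLX53 and pembrolizumab + HLX53, gave no member past the threshold. The share of all genes past it was 0.00671% with pembrolizumab + HLX53 and 0.0% with the other 4, and 1 member, Tnni1 with HLX53, had an unadjusted p under 0.05. The medians of the members lay between −0.08 and 0.01, with the same limit from low genes. Acta1 differed from vehicle by −0.30 to 0.13 (SE 2.28 each), Myh4 by −0.08 to 0.11 (SE 1.85), Ckm by −0.28 to 0.30 (SE 2.11) and Des by −0.01 to 0.90 (SE 1.18). The largest Des difference was with serplulimab + HLX53, the pairing in which Des was higher in T2106. Its tumours had 2.26, 5.14 and 2.16 FPKM of Des, against 1.62, 1.56 and 0.976 FPKM in vehicle tumours. All 3 were above the vehicle tumours, but the difference did not pass (0.90 ± 1.18, limma, adjusted p = 0.642). Without the tumours that stand apart, none of them in these 5 groups, it was 0.90 ± 0.37 (limma, adjusted p = 0.242). The SE of Acta1 was then 0.19 and that of Ckm 0.30 in each of the 5. The errors with all tumours were thus widened by tumours of other groups. Eno3 in the serplulimab + HLX53 tumours was at 65.3, 16.2 and 75.4 FPKM, against 63.6, 66.0 and 78.0 FPKM with vehicle.

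Pooled over the treatments, the 18 tumours given a PD-1 antibody were compared with the 9 without. No member passed the threshold (0.0% of genes did), 1 had an unadjusted p under 0.05, and without the 3 tumours that stand apart, all of them given a PD-1 antibody, the median of the 29 members was 0.03. For the 18 tumours given a TIGIT antibody against those without, no member passed the threshold or had an unadjusted p under 0.05, and 0.0134% of genes passed. Without the same tumours the median was −0.05, and both of these medians have the same limit from low genes.

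Among the 24 T2215 tumours that did not stand apart, the members with a level in every tumour were compared with smooth muscle and adipocyte genes, in 12 relations. Des followed the smooth muscle score (Pearson r = 0.897, permutation p = 1e-05, the smallest that 100000 resamples give, adjusted 0.00012, Spearman rho = 0.703, permutation p = 0.00023). It held at r = 0.708 without the 2 tumours farthest from the median score and at 0.918 within treatment groups. Eno3 ran against it (r = −0.860, permutation p = 3e-05, adjusted 0.00018, rho = −0.581, permutation p = 0.00319), at −0.609 without the 2 farthest tumours and −0.864 within groups. Tpm2 also rose with it (r = 0.775, permutation p = 9e-05, adjusted 0.00036, rho = 0.498, permutation p = 0.0152), at 0.596 and 0.768.

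With the adipocyte score the same 3 genes had smaller coefficients. Des gave r = 0.702 (permutation p = 0.00017, adjusted 0.00051, rho = 0.584, permutation p = 0.00325), at 0.585 without the 2 farthest tumours and 0.710 within groups. Eno3 gave r = −0.695 (permutation p = 0.00052, adjusted 0.00125, rho = −0.524, permutation p = 0.00889), at −0.657 and −0.663. Tpm2 gave r = 0.645 (permutation p = 0.00124, adjusted 0.00248), but its rank correlation did not pass (rho = 0.324, permutation p = 0.124), and r was 0.417 without the 2 farthest tumours and 0.654 within groups. The relations of Mylpf, Tnni2 and Cox6a2 with either score did not pass. These are relations between RNAs of the same libraries, which share their depth and tissue make-up.

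**Figure D5:**
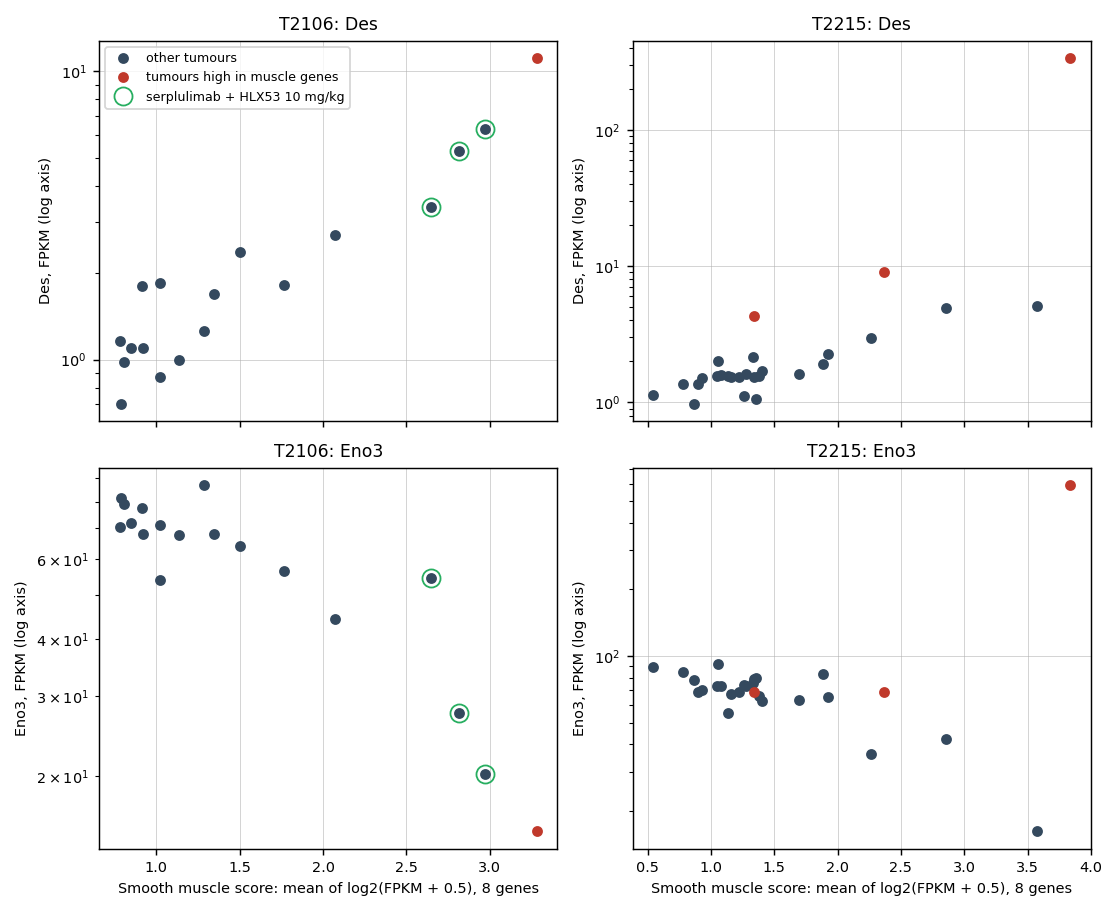
FPKM of Des and of Eno3 (vertical axes) against the smooth muscle score (mean log2(FPKM + 0.5) of 8 genes, horizontal axis), one point per tumour, in T2106 and T2215, with serplulimab + HLX53 10 mg/kg tumours circled. Des rises and Eno3 falls toward high scores, with r = 0.897 and −0.860 over the 24 T2215 tumours that do not stand apart.

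Outside the 40 members, the genes whose level was most like the muscle score were ranked by the smaller of their correlations with it in the 18 tumours of T2106 and the 27 of T2215, among 14634 genes. The first 10 were Jph2 (r = 0.903), which joins the surface and store membranes in muscle, Synm (0.849), an intermediate filament protein that partners desmin, Tuba8 (0.842), a tubulin of muscle and testis, Ppp1r3c (0.819), a glycogen-targeting phosphatase subunit, Pknox2 (0.811), Sema6c (0.806), Angptl8 (0.792), a lipase regulator made in fat and liver, AI464131 (0.789), Gm15440 (0.782) and Ksr1 (0.778), a scaffold of MAP kinase signalling. They describe these tumours, in which 4 high scores set most of the spread. Without those 4 tumours the correlations of the same genes lay between 0.712 (Ksr1) and 0.937 (Angptl8) in T2106. In T2215 they lay between 0.244 (Ksr1) and 0.784 (Ppp1r3c). Jph2, for example, was at 36.1 FPKM in serplulimab tumour 1 and 2.76 FPKM in serplulimab + HLX53 5 mg/kg tumour 2, against medians of 0.432 and 0.294 FPKM in the other tumours of each experiment.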

How the data were processed

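The deposited tables hold log2 FPKM per gene for single tumours, per the file headers. Genome builds (mm10, hg19, GRCh37) and programs (STAR, Bowtie, Trimmomatic, FastQC) are listed without their roles in the submitters' processing notes. The program and strand setting that made the FPKM values are not given in the sources used here. After undoing the log2, 0.5 was added to each FPKM and the log2 taken again for genes at 0.5 FPKM or more in at least 3 tumours. Each of 16 comparisons (6 in T2106, 10 in T2215) was fitted with limma 3.58.1 (R 4.3.3, eBayes with trend) on all tumours of its experiment, with Benjamini-Hochberg adjustment at 0.05, after a check on simulated data. Permutation tests used 100000 resamples and were two-sided. The members and gene lists were chosen with earlier results of these data known. All 40 members are named, with folds for those past the threshold and, against vehicle, for Acta1, Ckm, Myh4, Tnni1 and Des. Other lists name up to 4 genes by smallest p, and some of their results are not reported here. Alternatives were the pseudocount, the filter, the groups fitted, centring, a replicate block, limma's robust setting, and leaving out tumours. No column was left unmapped.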

Additional observations from a re-analysis of the deposited data

Results flagged for a closer look

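The 4 treatments given in both experiments were set side by side for the 12 members tested in both and for the muscle score, 52 cases in all. In 4 of the 52 all 3 treated tumours lay on one side of the vehicle mean in T2106 and all 3 on the other side in T2215. The difference between experiments was not tested in any of the 4. How often other genes did so is not given, so the 4 cases cannot show that the experiments disagree. With serplulimab, Tnni1 differed from vehicle by −0.15 in T2106 and 0.95 in T2215, a difference of −1.11 on the log2 scale. With HLX53, Tnni1 differed by −0.10 and 0.46, a difference of −0.56. With pembrolizumab + tiragolumab, Tpm2 differed by −0.24 and 0.33, a difference of −0.57, and Des by −0.10 and 0.99, a difference of −1.08. The T2215 tumours of the last treatment include tumour 3, which stands apart in muscle genes.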

How the results depend on the processing

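In 12 of 16 comparisons no member was called under any alternative. Among 878 checks of named values, 862 kept their side of the threshold, 11 lost it and 5 gained it. No value that passed in either fit changed sign, but sign changes of values that passed in neither were not counted. With T2215 pembrolizumab + tiragolumab, Acta1 and Ckm were positive with all tumours. Without the tumours that stand apart they were −0.24 and −0.20. In the other 4 comparisons the count of members called moved. For T2106 serplulimab + HLX53 10 mg/kg against vehicle, 2 members were called, 1 with pseudocount 1 (Des), 1 of 40 with no filter (Mb, where Des had an adjusted p of 0.0659 and Myl1 of 0.121), 5 with only the groups compared in the fit, 5 without the tumour high in muscle genes (chosen after seeing the data), and 0 to 3 when single tumours were left out. For serplulimab + HLX53 5 mg/kg against vehicle leaving out single tumours gave 0 to 2 members, for 10 against 5 mg/kg 0 to 3, also 3 without the tumour high in muscle genes, and for T2215 serplulimab against vehicle 0 to 10. The cause was not tested, and the share of all genes called in these refits is not given beside the counts. Replicate numbers did not pair tumours: same-numbered tumours correlated at −0.683 to 0.624 in T2106 and −0.739 to 0.723 in T2215. The replicate block left 2 members called with serplulimab + HLX53 10 mg/kg (Des 0.0294, Myl1 0.0443) and 0 in the other 15 comparisons, and changed no other call. Of tumours, 7 of 18 and 10 of 27 correlated best with their own number. Centring each tumour shifted the median of all genes by up to about 0.12 and turned the 154 genes called with 5 mg/kg (53 higher) into 80 (62 higher), but moved no count of members. With pseudocount 1, 2 T2215 tumours stood apart in place of 3. Depth is unknown, which limits what low levels can show.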
